A study of Homo sapiens with 6 samples.

Results

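Mucins are large, heavily O-glycosylated proteins that coat epithelia, and trefoil peptides are small secreted proteins that are packed with them. Transcripts of 10 such genes were followed in PC9, a line of human lung adenocarcinoma cells that depends on a mutant, active EGFR: the membrane mucins MUC1, MUC4, MUC16 and MUC20, the gel-forming mucins MUC5AC and MUC5B, the trefoil peptides TFF1, TFF2 and TFF3, and AGR2, a protein disulfide isomerase of the endoplasmic reticulum that mucin folding requires in mouse intestine. They were taken by symbol, and all 10 had a row among the 26485 genes of the authors' deposited table. Polyadenylated RNA was sequenced from 3 libraries of untreated parental cells and 3 libraries of dacomitinib-resistant cells. Resistant cells had been selected over 6 months in dacomitinib, a covalent inhibitor of EGFR-family kinases, from 1 pM up to 100 nM, and were sampled in 100 nM of the drug. Resistance and the presence of drug were therefore not separated, and the labels do not say whether the resistant line is 1 clone or whether replicates came from separate cultures, so p-values measure only the spread between these libraries.

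Gel-forming mucins are secreted and form the mucus layer, while membrane mucins stay anchored in the apical membrane and carry a cytoplasmic tail. MUC1 and MUC4 are known to associate with EGFR-family receptors, MUC1 with EGFR and MUC4 with ERBB2. MUC5AC and MUC5B are the main mucins of airway mucus, MUC5AC from goblet cells and MUC5B largely from submucosal glands and secretory cells, and trefoil peptides are best known from the stomach and intestine, where TFF1 accompanies MUC5AC, TFF2 accompanies MUC6 and TFF3 accompanies MUC2.

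Resistant cells had far less transcript of TFF1, TFF2, MUC5B and AGR2, and more of MUC4 and MUC1, whereas MUC16 and MUC20 did not pass the test. The authors' deposited table gave 9 of the 10 genes an adjusted p-value, and 6 of these 9 were called at an adjusted p under 0.05, 2 higher and 4 lower in resistant cells. The authors' deposited table called 28.2% of all 13494 genes tested, 13.3% as higher and 14.8% as lower, and 41.5% of those whose mean normalized count reached 50. The called genes all differed by at least 2-fold, a size that 10.2% of all genes tested reached together with a call. The 10 genes were chosen with earlier results of these data known, so these shares are a description and not a test. Over the 9 genes the log2 fold change had a median of -2.64, against 0.02 over all genes tested, and it was -0.80 once a group with a fitted mean count under 1 was set to 1. These are bulk samples, so fewer cells that make a transcript and less of it per cell cannot be told apart.

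Values per library were recovered from the means in the authors' deposited table. A mean normalized count is a sum of whole reads, each divided by the size factor of its library, and 6 size factors follow from genes with 1 read in 1 library. For 8 of the 9 genes with reads, 1 set of 6 whole read counts gave the deposited mean within its decimal precision. MUC4 had 5 such sets, of which 1 also gave its deposited fold change, and for the 7 genes with reads in both groups the recovered counts gave the deposited fold change within 2.7e-06. Parental libraries, lettered A, B and C here, had size factors of 0.539, 1.03 and 1.08, and resistant libraries A, B and C had 1.06, 1.19 and 1.37. Multiplied by the summed mean counts, they correspond to about 2.14e+06 to 5.44e+06 reads per library. The letters are not replicate numbers of the labels. Which group is which follows from the design, which names the resistant cells first and compares them to the parental ones, since the table's headers give no direction.

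**Figure D1:**
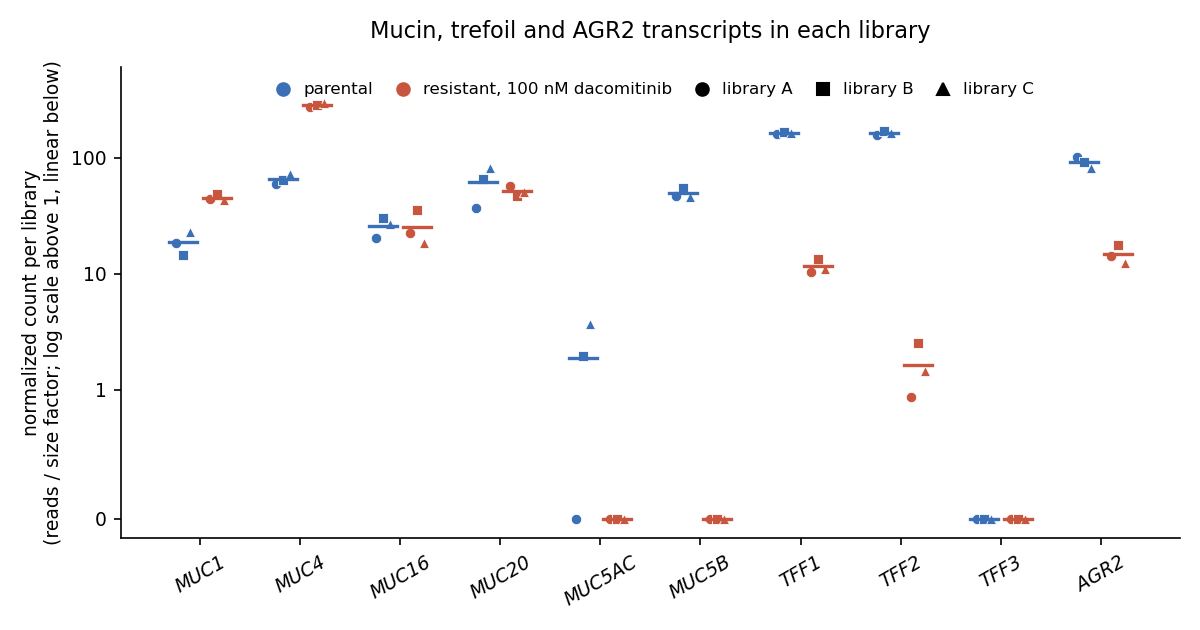
Normalized count (reads divided by the size factor) of each gene in each of the 6 libraries, on an axis that is logarithmic above 1 and linear below it; short lines are group means, n = 3. TFF1, TFF2, MUC5B and AGR2 sit lower in all 3 resistant libraries, MUC4 and MUC1 sit higher, MUC16 and MUC20 overlap, and TFF3 is at 0 in all 6.

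The start regions of 3 called genes are shown because MUC1 and MUC4 rose while AGR2 fell. Entries in the RefSeq table of promoters (GRCh38.p14, 250 bases before to 50 after a start) were matched for 4 of the 10 genes, MUC1, MUC4, MUC16 and AGR2. The first entry of each called gene is printed 5′ to 3′ on the strand of the gene, which is the minus strand for all 3. They lie at chr1:155192866-155193165 for MUC1, chr3:195811880-195812179 for MUC4 and chr7:16804950-16805249 for AGR2. RefSeq starts differ from the GENCODE starts used below for distances to neighbours. The windows of MUC4 and AGR2 lie wholly inside the GENCODE spans of these genes, whose starts are at 195812277 and 16833433. For both genes the printed letters therefore do not include the GENCODE start, and positions of matches count from the RefSeq start. Capitals mark matches, on either strand, to a TATA box spelled TATAAA, to an AP-1 pattern spelled TGANTCA, to a FOXA pattern spelled TGTTTAC or in a second spelling TATTTAC, to an SP1 pattern spelled GGGCGG, to an E-box spelled CACGTG, or to a STAT pattern spelled TTCNNNGAA.

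MUC1: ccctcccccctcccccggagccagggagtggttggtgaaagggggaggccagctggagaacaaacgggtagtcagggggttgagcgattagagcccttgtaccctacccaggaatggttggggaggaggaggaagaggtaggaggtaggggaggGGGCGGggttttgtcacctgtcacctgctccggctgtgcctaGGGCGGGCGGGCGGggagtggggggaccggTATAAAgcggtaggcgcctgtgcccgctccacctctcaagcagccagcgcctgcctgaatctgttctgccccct

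MUC4: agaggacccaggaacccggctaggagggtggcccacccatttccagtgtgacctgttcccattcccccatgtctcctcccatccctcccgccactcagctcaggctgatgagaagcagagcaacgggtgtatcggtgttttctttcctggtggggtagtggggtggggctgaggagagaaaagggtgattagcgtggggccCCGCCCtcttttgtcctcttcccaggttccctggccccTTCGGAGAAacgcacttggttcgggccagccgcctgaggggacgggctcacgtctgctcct

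AGR2: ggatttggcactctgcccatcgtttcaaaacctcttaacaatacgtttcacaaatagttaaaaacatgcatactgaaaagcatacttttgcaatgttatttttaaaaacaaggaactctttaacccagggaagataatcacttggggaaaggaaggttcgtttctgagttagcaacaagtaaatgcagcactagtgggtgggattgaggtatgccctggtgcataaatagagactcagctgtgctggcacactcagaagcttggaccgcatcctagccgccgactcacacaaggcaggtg

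The printed MUC1 window held TATAAA at position -24, counting the last base before the start as -1, and GGGCGG at -96, -54, -50 and -46, the last 3 overlapping each other. A second MUC1 entry, at chr1:155192860-155193159, placed TATAAA at -30 and GGGCGG at -102, -60, -56 and -52. The MUC4 window held GGGCGG on the other strand at -49 and the STAT pattern, as TTCGGAGAA, at -11, and the AGR2 window held no match. Of all 35116 promoters in the table, 45.0% held GGGCGG, 11.5% TATAAA and 7.66% the STAT pattern, so the first of these is common. The other patterns were held by 7.71% (AP-1), 7.26% (E-box), 3.42% (TGTTTAC) and 2.67% (TATTTAC). GC content was 65.7% in the MUC1 window, 62.0% in that of MUC4 and 43.7% in that of AGR2, against a median of 58.7%. MUC16, which was not called, had 2 entries, of which the first had 62.0% GC and held GGGCGG on the other strand at -47. The second had 64% GC and held the AP-1 pattern at -136, but no GGGCGG. Both entries, which begin at chr19:9065702 and chr19:9010360, lie outside the GENCODE span of MUC16, which ends at 8981342. GC content and GGGCGG were alike in the MUC4 window and the first MUC16 entry only. Whether these letters bear on the fold changes was not tested. A match describes the letters and is not evidence of binding.

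Among the 10 genes, the trefoil peptides TFF1 and TFF2 had the lowest fold changes of those with reads in both groups. TFF1 and TFF2 are secreted by gastric surface and neck cells, respectively, and take part in mucosal repair. TFF1 had 86, 171 and 176 reads in parental libraries A, B and C and 11, 16 and 15 in the resistant ones, or normalized counts of 160, 165 and 162 against 10.3, 13.5 and 10.9. The groups were far apart, the lowest parental value being 11.8 times the highest resistant one. Its log2 fold change in the authors' deposited table was -3.81 ± 0.28 (SE, adjusted p = 1.31e-40).

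TFF2 had 85, 174 and 176 reads in the parental libraries and only 1, 3 and 2 in the resistant ones. Its normalized counts were 158, 168 and 162 in parental cells and 0.940, 2.52 and 1.46 in resistant cells, so the resistant values rest on 6 reads in all. The log2 fold change of TFF2 in the authors' deposited table was -6.62 ± 0.61 (adjusted p = 2.14e-25), rank 21 from the lowest fold among 13494 genes, where TFF1 had rank 148.

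TFF1 and TFF2 had nearly equal reads in each parental library and unequal reads in each resistant one. The ratio of TFF1 to TFF2 reads was 1.01, 0.983 and 1.00 in parental libraries A, B and C, and 11, 5.33 and 7.50 in the resistant ones. Over pooled reads the ratio was 0.995 in parental cells (95% exact Clopper-Pearson interval from 0.869 to 1.14) and 7 in resistant cells (2.96 to 20.1), intervals that cover counting error only. Reads of these libraries come from 3′ ends, so the ratio is not scaled by transcript length. The log2 fold change of TFF1 exceeded that of TFF2 by 2.81 ± 0.67, with a 95% interval from 1.49 to 4.13 when their errors are taken as independent.

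TFF3, the trefoil peptide of intestinal goblet cells, had a mean of 0 in the authors' deposited table and no read in any library. A count of 0 allows up to 3 reads over a group, a mean normalized count of 1.13 in parental and 0.828 in resistant cells. RPL10, a ribosomal protein gene used by nearly all cells, had a mean of only 0.571 in the authors' deposited table, so a value of 0 in these 3′-end libraries is not read as absence. The 3 trefoil genes lie side by side within 54.9 kb on the minus strand of chromosome 21 (GRCh38), TFF3 from 42311667 to 42315651, TFF2 from 42346357 to 42351128 and TFF1 from 42362282 to 42366594.

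AGR2 fell with the trefoil peptides, though less than either. It had 55, 95 and 89 reads in the parental libraries and 15, 21 and 17 in the resistant ones, or normalized counts of 102, 91.9 and 82.1 against 14.1, 17.7 and 12.4. The lowest parental library stood at 4.64 times the highest resistant one. The log2 fold change in the authors' deposited table was -2.64 ± 0.29 (adjusted p = 5.68e-18), a 6.22-fold lower level of AGR2, at chromosome 7, from 16791811 to 16833433. The ratio of AGR2 to TFF1 reads was 0.506 to 0.640 in the parental libraries and 1.13 to 1.36 in the resistant ones. AGR3, the closest relative of AGR2, was listed at 0 in the authors' deposited table.

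Of the gel-forming mucins, MUC5B had reads in parental cells only. MUC5B had 25, 57 and 50 reads in parental libraries A, B and C, normalized counts of 46.4, 55.1 and 46.1, and 0 reads in all 3 resistant libraries. It was called lower in the authors' deposited table (adjusted p = 1.39e-10), and from a parental mean normalized count of 49.2 against a floor of 3 reads over the resistant group, or 0.828, its level was at least 59.4-fold lower. Its fitted fold, an open circle where plotted, is not read as a size, since that value depends on the fit when a group has no reads.

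MUC5AC, its neighbour, had 0, 2 and 4 reads in the parental libraries and 0 in the resistant ones. Parental library A overlapped with the resistant libraries at 0, and MUC5AC was not called in the authors' deposited table (adjusted p = 0.183, mean normalized count 0.937). A difference in MUC5AC was not detectable at this depth. MUC5AC lies on chromosome 11 from 1157953 to 1201138 and MUC5B from 1223066 to 1262172, 21.9 kb apart on the plus strand.

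The membrane mucin MUC4 rose in resistant cells and there had the highest normalized count of the 10 genes. MUC4 had 32, 66 and 78 reads in the parental libraries and 293, 340 and 409 in the resistant ones. Its normalized counts were 59.4, 63.8 and 71.9 in parental and 275, 286 and 298 in resistant cells, so every resistant value was at least 3.83 times every parental one. The log2 fold change in the authors' deposited table was 2.12 ± 0.16 (adjusted p = 2.04e-36), a 4.35-fold higher level and rank 580 from the highest fold among all genes tested.

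MUC1, a membrane mucin found on most glandular epithelia, rose from a lower count. It had 10, 15 and 25 reads in the parental libraries and 47, 58 and 59 in the resistant ones, normalized counts of 18.5, 14.5 and 23.1 against 44.2, 48.8 and 43.0. The groups did not overlap, with a gap of 1.87 times. The log2 fold change of MUC1 in the authors' deposited table was 1.27 ± 0.34 (adjusted p = 0.00100), or 2.41-fold higher, with a 95% interval from 0.61 to 1.93. With a t distribution of 4 degrees of freedom in place of the normal one, MUC1 did not pass (adjusted p = 0.123). The rise of MUC4 exceeded that of MUC1 by 0.85 ± 0.37 on the log2 scale (95% interval of MUC1 minus MUC4 from -1.58 to -0.12), and MUC4 reads were 3.12 to 4.4 times MUC1 reads in parental libraries and 5.86 to 6.93 times in resistant ones.

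MUC20 and MUC16 did not pass the test. MUC20, a small membrane mucin reported to bind the receptor MET, had normalized counts of 37.1, 65.8 and 81.1 in the parental libraries and 57.3, 47.1 and 51.0 in the resistant ones, and the groups overlapped. Parental values spread over 2.19 times, the widest parental spread among the genes with reads in every parental library. Its log2 fold change in the authors' deposited table was -0.29 ± 0.26 (adjusted p = 0.475), with a 95% interval from -0.81 to 0.22. MUC16, which carries the CA125 antigen and binds mesothelin, had 20.4, 30.0 and 26.7 in parental and 22.6, 35.3 and 18.2 in resistant libraries. For MUC16 the log2 fold change in the authors' deposited table was -0.05 ± 0.37 (adjusted p = 0.945), with an interval from -0.78 to 0.67. MUC4 stood above MUC16 by 2.17 ± 0.40 and MUC1 above it by 1.32 ± 0.50 in log2 fold change, with 95% intervals from 1.38 to 2.97 and from 0.34 to 2.30.

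**Figure D2:**
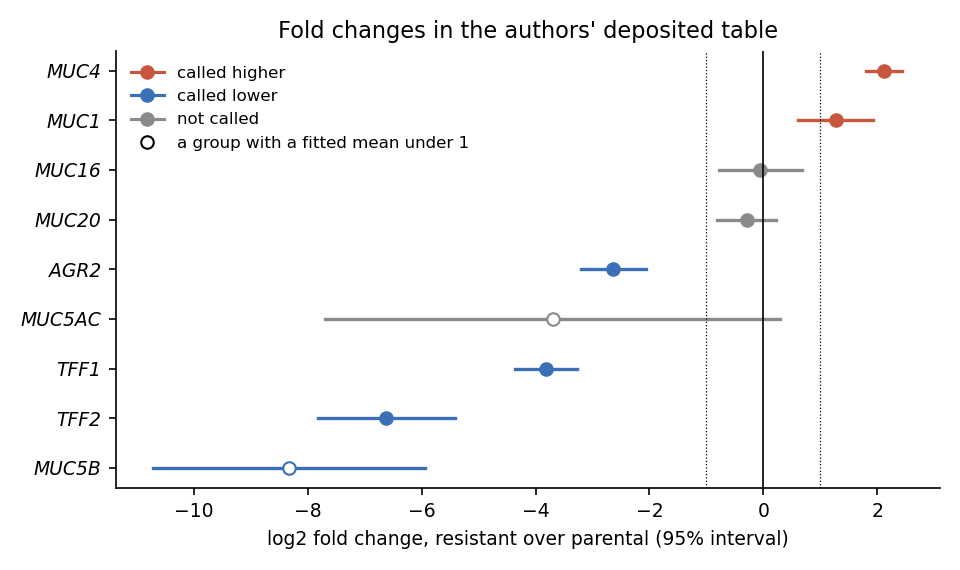
Log2 fold change of resistant over parental cells for the 9 genes with reads, with 95% normal intervals from the authors' standard errors; dotted lines mark 2-fold changes, and open circles mark MUC5B and MUC5AC, whose fitted fold depends on the fit. Among the called genes, only the interval of MUC1 (0.61 to 1.93) reaches inside 2-fold.

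Libraries of the groups did not overlap for 6 genes, the same 6 that were called, where 28.2% of all genes tested were called. The share of all genes without overlap is not known here, since reads per library were recovered for the 10 genes only. An exact permutation test of 3 against 3 libraries cannot go below p = 0.1 (two-sided), which these 6 genes reached, so the calls rest on the fit over all genes. In GENCODE 29 the lincRNA MUC20-OT1 and the coding gene AL713999.1 overlap MUC20 and MUC1 on the same strand, MUC5B-AS1 overlaps MUC5B on the opposite strand, and MUC20P1 is a pseudogene copy of MUC20. These were not analysed here, and reads shared with them cannot be told apart from reads of the mucins.

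The summed normalized count of the 10 genes fell, and its makeup changed. How well 3′-end reads capture each gene was not tested, and RPL10 was nearly missed. The shares are therefore shares of counts and not of transcript amounts. The summed normalized count was 639 in parental cells (601 to 659 over the 3 libraries) and 437 in resistant cells (425 to 451), and the groups did not overlap. In parental cells TFF1 and TFF2 each held 25.4% and 25.5% of the sum, AGR2 14.4%, MUC4 10.2%, MUC20 9.60%, MUC5B 7.70%, MUC16 4.02% and MUC1 2.93%. In resistant cells MUC4 alone held 65.6%, followed by MUC20 with 11.9%, MUC1 with 10.4%, MUC16 with 5.81%, AGR2 with 3.37%, TFF1 with 2.65% and TFF2 with 0.375%.

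**Figure D3:**
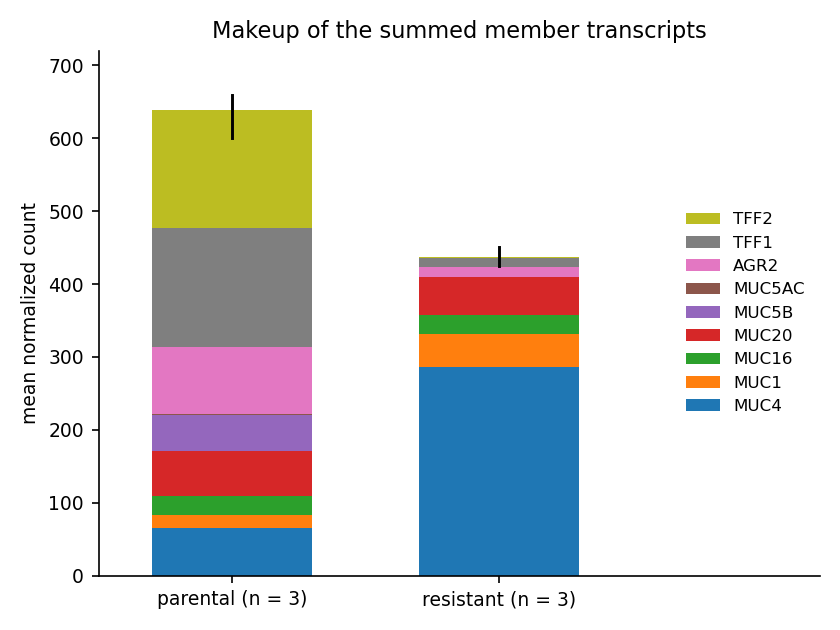
Mean normalized count of each gene, stacked, in parental and resistant cells (n = 3 libraries each); black lines give the range of the summed count over the 3 libraries. TFF1, TFF2 and AGR2 fill the upper part of the parental bar of 639, and MUC4 makes up 65.6% of the resistant bar of 437.

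The fall of TFF1 and TFF2 came with lower levels of several genes beside them on chromosome 21. Of 14 other tested genes starting within 1 Mb of TFF2, the authors' deposited table gave 11 a fold below 0 and called 5 lower and 0 higher, and their median log2 fold change was -0.93. Of all genes tested, 14.8% were called lower and 28.2% either way. The sugar-phosphate exchanger SLC37A1 (-1.20 ± 0.16), the ciliary gene RSPH1 (-0.92 ± 0.30), the cyclic GMP phosphodiesterase PDE9A (-1.27 ± 0.48) and the kinase RIPK4 (-0.94 ± 0.11) fell, and the sterol transporter ABCG1, with a fitted parental mean of 6.42 and a resistant one under 1, was called lower, in the authors' deposited table. At other neighbours, the authors' deposited table gave 0.03 ± 0.11 for NDUFV3, -0.29 ± 0.16 for WDR4 and -0.09 ± 0.17 for C2CD2, none of which passed. ZBTB21 (0.70 ± 1.00) and PRDM15 (0.06 ± 0.35) were not called either. The remaining uncalled neighbours had folds below 0. They were TMPRSS3 (-2.67 ± 1.44), LINC00479 (-1.70 ± 1.24), MX1 (-1.33 ± 1.58) and PKNOX1 (-0.13 ± 0.39). TMPRSS3, the nearest tested neighbour at 45.7 kb, and MX1 had a resistant fitted mean under 1. Within 0.5 Mb of TFF2, 8 neighbours were tested, of which 4 were called lower and 0 higher. These 4 were SLC37A1 (145 kb), RSPH1 (145 kb), ABCG1 (151 kb) and PDE9A (303 kb). They start nearer to TFF2 than any tested neighbour with a fold above 0. The other called fall, RIPK4, starts 584 kb from TFF2. ZBTB21 (341 kb), C2CD2 (397 kb) and PRDM15 (472 kb), not called, start nearer on the same side. With a t distribution of 4 degrees of freedom, an alternative chosen after seeing the data, 2 of the 5 falls passed, those of RIPK4 (adjusted p = 0.0310) and SLC37A1 (adjusted p = 0.0368). Whether these neighbours have a part in the result was not tested.

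MUC4 and MUC20 lie end to end on chromosome 3, MUC20 from 195720882 to 195741123 on the plus strand and MUC4 from 195746765 to 195812277 on the minus strand, with 5.64 kb between them. Their log2 fold changes differed by 2.42 ± 0.31 (95% interval from 1.81 to 3.02). Of 20 other tested genes starting within 1 Mb of MUC4, the authors' deposited table called 0 higher and 1 lower, the transferrin receptor TFRC at -0.27 ± 0.10, and their median was -0.07. By the authors' deposited table, AGR2 had 5 tested neighbours within that distance, of which the transcription factor AHR (0.28 ± 0.11) rose and BZW2 (-0.45 ± 0.09) fell. The 41 tested neighbours of MUC5B had a median of 0.05, and the authors' deposited table called 9 of them higher and 5 lower, where 28.2% of all genes tested were called. MUC1, on chromosome 1 from 155185824 to 155192916, had 47 tested neighbours with a median of 0.06, of which 26 had a fold above 0. The authors' deposited table called 2 of these neighbours higher and 9 lower, where 13.3% of all genes tested were called higher and 14.8% lower. MUC16, on chromosome 19 from 8848844 to 8981342, had 23 with a median of 0.10, of which the authors' deposited table called 3 higher and 4 lower. With the t distribution no neighbour of MUC4, AGR2 or MUC16 passed, nor did any of the 9 falls around MUC1. Of the 2 rises around MUC1, that of PBXIP1 (1.95 ± 0.23) passed (adjusted p = 0.0310). Of the 14 called neighbours of MUC5B, 3 passed with it. These were CTSD (-1.16 ± 0.07, adjusted p = 0.0139), TSPAN4 (1.29 ± 0.17, 0.0369) and CD151 (0.43 ± 0.07, 0.0489).

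**Figure D4:**
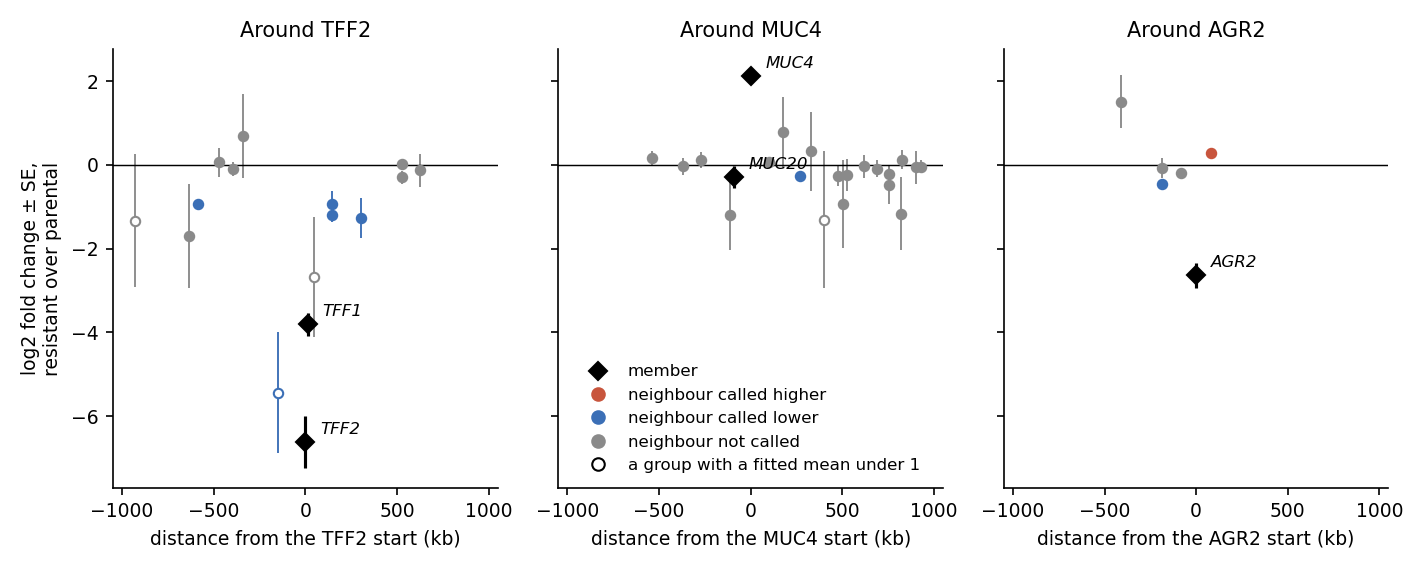
Log2 fold change ± SE of tested genes by the distance of their start from that of TFF2, MUC4 and AGR2; diamonds are the mucin, trefoil and AGR2 genes, circles their neighbours, and open circles genes with a group under a fitted mean of 1. Around TFF2, 5 of 14 tested neighbours were called lower, and around MUC4 1 of 20, where MUC4 stands alone at 2.12. Of all genes tested, 14.8% were called lower. With the t distribution 2 of the 5 falls around TFF2 passed.

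Genes that work beside mucins were read from 6 lists, chosen with earlier results of these data known. The shares called below therefore describe these lists and are not a test of them. Of their tested genes, 52.9% of the secretory cell regulators, 88.9% of the airway secretory proteins, 47.6% of the O-glycosylation enzymes, 53.3% of the AGR2 relatives and folding enzymes and 46.7% of the partners and sheddases were called, against 28.2% of all genes tested and 41.5% of those whose mean normalized count reached 50. Of 25 regulators of secretory cells, 17 were tested, of which the authors' deposited table called 8 lower and 1 higher, and their log2 fold change had a median of -0.60, or -0.49 with a group under a fitted mean of 1 set to 1. In the authors' deposited table SPDEF, an ETS factor needed for goblet cell differentiation in mice, fell by 1.61 ± 0.54 (adjusted p = 0.0129). The epithelial ETS factor EHF (-1.57 ± 0.26) and the Notch effector HES1 (-1.27 ± 0.09) fell with it in the authors' deposited table. CREB3L1, a membrane-bound transcription factor of secretory cells, rose by 1.78 ± 0.38 in the authors' deposited table. With the t distribution SPDEF (adjusted p = 0.184), EHF (0.0514) and CREB3L1 (0.0860) did not pass, and HES1 did (0.0161). FOXA3 and NKX2-1, the lineage factor of lung adenocarcinoma, were listed at 0 in the authors' deposited table.

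Of 25 airway secretory proteins, 9 were tested, and the authors' deposited table called 6 of them lower and 2 higher. The calcium-binding protein S100P (-3.56 ± 0.11), the adhesion molecule CEACAM6 (-3.22 ± 0.08) and the siderophore-binding protein LCN2 (-2.98 ± 0.11) fell, and the protease inhibitors SLPI (0.62 ± 0.06) and CST6 (0.57 ± 0.11) rose, in the authors' deposited table. Of these 5, CST6 did not pass with the t distribution (adjusted p = 0.0662). The median of the list was -2.92, over the 9 tested genes only. Of the others, 7 were listed at 0, among them SCGB3A1 and SCGB3A2, and 9 were too low for an adjusted p. The latter included BPIFA1, BPIFB1, LTF, PIGR and SCGB1A1, the marker of airway club cells, at 0.431 in the authors' deposited table. The list median does not describe these untested airway genes.

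Of 32 enzymes of mucin-type O-glycosylation, which build the sugar chains of mucins, 21 were tested, and the authors' deposited table called 8 lower and 2 higher, at a median of 0.02. GCNT1, which makes the core 2 branch, rose by 2.80 ± 0.32 (adjusted p = 1.22e-16), and GALNT12, which starts the chain, by 0.74 ± 0.11, in the authors' deposited table. The sialyltransferase ST3GAL1 (-1.20 ± 0.16), the fucosyltransferase FUT3 (-1.12 ± 0.22) and the chain-starting enzymes GALNT10 (-0.83 ± 0.10) and GALNT6 (-0.51 ± 0.13) fell in the authors' deposited table. With the t distribution the falls of FUT3 (adjusted p = 0.0707) and GALNT6 (0.118) did not pass.

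Of 18 relatives of AGR2 and folding enzymes of the endoplasmic reticulum, 15 were tested, and the authors' deposited table called 5 lower and 3 higher, at a median of -0.03. The disulfide isomerases PDIA6 (-1.10 ± 0.07) and PDIA5 (-0.91 ± 0.16) and the membrane-bound factor CREB3L2 (-0.83 ± 0.23) fell in the authors' deposited table. The thioredoxin-domain protein TXNDC12 (0.41 ± 0.11), the oxidase ERO1A (0.38 ± 0.14) and the KDEL receptor KDELR1 (0.26 ± 0.06) rose by small amounts in the authors' deposited table. With the t distribution, 1 of the 15 passed, PDIA6 (adjusted p = 0.0145), and none of the 3 rises did, where 6.68% of all genes tested passed.

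Of 21 binding partners and sheddases of mucins and trefoil peptides, 15 were tested, and the authors' deposited table called 4 lower and 3 higher, at a median of 0.13. EGFR (-1.28 ± 0.16), the mucin-binding galectin LGALS3 (-1.10 ± 0.08) and the sheddase ADAM17 (-1.05 ± 0.15) fell in the authors' deposited table. For ERBB2, the partner of MUC4, the authors' deposited table gave 0.29 ± 0.17, which did not pass (adjusted p = 0.215). The chemokine receptor ACKR3 (3.29 ± 0.26) and the galectin LGALS1 (0.48 ± 0.08) rose, and LINGO2, reported as a partner of TFF3, was called higher from a fitted parental mean under 1 to 30.3, in the authors' deposited table. MSLN, which encodes the mesothelin bound by MUC16, had a mean normalized count of 0.418, too low for an adjusted p, by the authors' deposited table. Of 16 other mucins, 2 were tested: OVGP1 rose by 1.45 ± 0.52 (adjusted p = 0.0218) and CD164 had -0.04 ± 0.23, in the authors' deposited table. With the t distribution LGALS1 (adjusted p = 0.0523), LINGO2 (0.0581) and OVGP1 (0.203) did not pass. In the list of other mucins 10 genes, among them MUC2 and MUC13, were listed at 0 in the authors' deposited table.

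**Figure D5:**
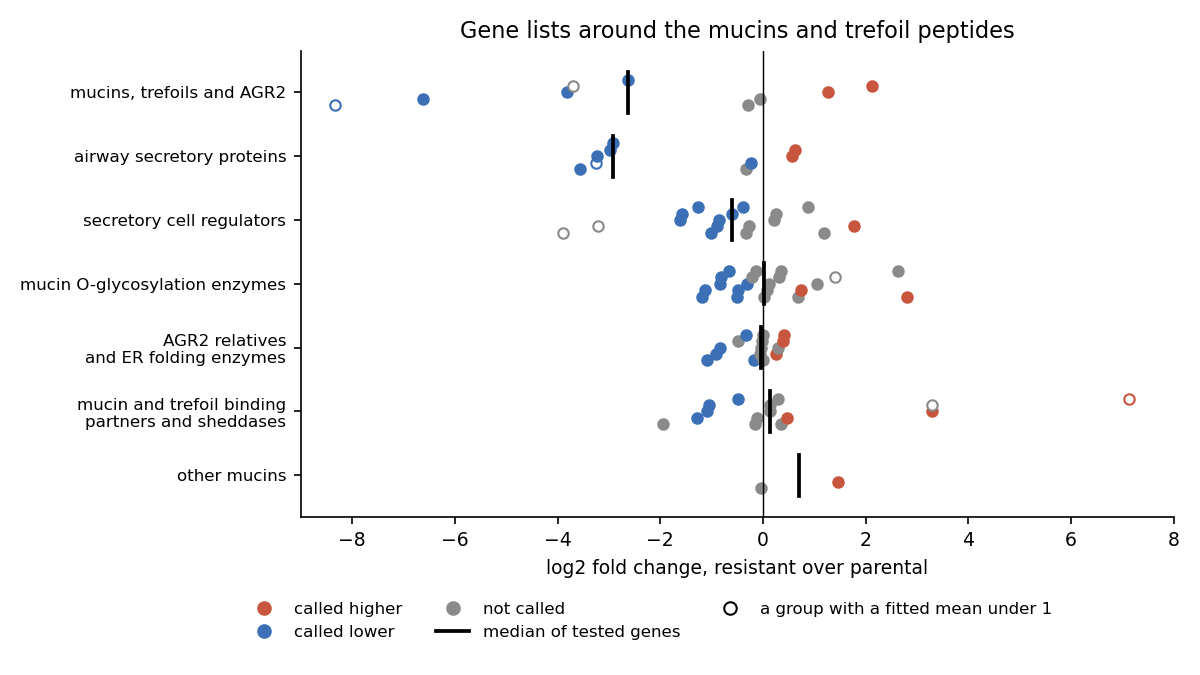
Log2 fold change of each tested gene of the mucin, trefoil and AGR2 group and of 6 related lists, with a bar at the median of each list; open circles mark genes with a group under a fitted mean of 1. Of 25 genes in the list of airway secretory proteins only 9 were tested, with a median at -2.92. These include the adhesion molecule CEACAM6 and the calcium-binding protein S100P. The median of the O-glycosylation enzymes lies at 0.02.

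Markers of cell types were read beside these results. All 10 epithelial markers were tested, 2 of them higher and 2 lower, and their fitted mean counts, from the authors' deposited table, summed to 60164 in parental and 62746 in resistant cells. Of 10 fibroblast markers, 5 were listed at 0 (COL1A2, PDGFRA, DCN, LUM and THY1), and 3 were tested and rose (PDGFRB, COL1A1 and C1S), in the authors' deposited table. The summed level of the list went from 12.0 to 729, and PDGFRB alone went from 2.27 to 651, while COL1A1 reached 26.2 and C1S 50.6, as fitted means from the authors' deposited table. Leukocyte markers summed to 336 in parental and 380 in resistant cells, mostly from CD68 (164 and 169) and LAPTM5 (158 and 194), with PTPRC, CD3E and TYROBP listed at 0. Endothelial markers summed to 35.0 and 14.3, mostly from CDH5 (32.7 and 14.2), with VWF, KDR, TEK, CLDN5, EMCN and ERG listed at 0, in the authors' deposited table. LYZ, of the leukocyte list, and CDH5 were called lower there, and neither passed with the t distribution (adjusted p = 0.194 and 0.165). The part of these markers in the mucin and trefoil results was not tested.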

How the data were processed

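The 10 genes and the lists were chosen with earlier results of these data known. RNA of 3 parental and 3 resistant libraries was sequenced with a bulk 3′-end protocol derived from MARS-seq, per the labels' protocols. The submitters' processing notes name the tools DESeq2, HTSeq, STAR and cutadapt and the build GRCh38 (hg38); versions, settings, strand use and handling of molecular barcodes are not given in the sources used here. The authors' deposited table holds 1 comparison. Per the file headers it gives the mean over libraries of the normalized count (a signal), a log2 fold change with its standard error, a Wald statistic (a score), a p-value and a Benjamini-Hochberg adjusted p-value. Calls are those of that two-sided Wald test at an adjusted p under 0.05, made with DESeq2 per the submitters' processing notes. The fold direction is not in the headers and is read from the design.

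Reads per library were recovered by searching whole counts whose size-factor sum equals 6 times the deposited mean within at most 7.1e-12, and by a negative binomial fit at the deposited standard error; the search was tested on simulated data. A library was placed on a side by the sign of the fold of genes with 1 read in it. Intervals are 95% normal intervals, and group means of other genes derive from the mean and the fold, so values per library are given for the 10 genes only. Named list genes are up to 3 rises and 3 falls per list, called, with a lower fitted mean of at least 1, and 8 further genes named in the rule (SPDEF, FOXA3, AGR3, GALNT6, MSLN, LGALS3, EGFR and ERBB2). Neighbours, LINGO2, ABCG1, CD164, NKX2-1, SCGB1A1 and the other untested airway genes, single cell type markers, RPL10 and the mucins listed at 0 were picked after their values were seen. Positions come from GENCODE 29 (GRCh38), matched by symbol for 12639 tested genes (93.7%). Alternatives were a t reference, centring, other filters on low counts, other windows and leaving out each recovered library. Python 3.11.15, numpy 2.4.6, pandas 2.3.3 and scipy 1.17.1 were used.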

Additional observations from a re-analysis of the deposited data

How the results depend on the processing

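Centring on the median fold of genes whose mean count reached 50 (-0.03) and adjusting over all 15867 genes with a p-value left the counts of called mucin, trefoil and AGR2 genes at 2 higher and 4 lower. With a t distribution of 4 degrees of freedom the genes called higher numbered 1, because MUC1 did not pass (adjusted p = 0.123), and over all genes 902 were called in place of 3800. Under that reference the lists had fewer calls: 0 of the other mucins against 1, 5 of the O-glycosylation enzymes against 10, 3 of the secretory cell regulators against 9, 4 of the airway secretory proteins against 8, 1 of the AGR2 relatives and folding enzymes against 8 and 4 of the partners and sheddases against 7. Restricting to those genes, which leaves out MUC1, MUC16, MUC5AC and MUC5B, gave 1 gene called higher and 3 lower, and 0 of the other mucins. The median fold of the 9 tested genes was -0.80 in place of -2.64 with a group under 1 set to 1, and the member in the middle is then MUC5AC. Leaving out each recovered library in turn, an alternative chosen after seeing the data, gave log2 ratios of pooled reads from 1.07 to 1.51 for MUC1, 2.08 to 2.21 for MUC4, -0.41 to 0.13 for MUC16, -0.51 to -0.12 for MUC20, -3.93 to -3.75 for TFF1, -7.05 to -6.39 for TFF2 and -2.78 to -2.49 for AGR2, so none of these changed direction among the called genes; MUC5B and MUC5AC, with no resistant reads, gave no ratio. Within 0.5 Mb and 2 Mb the neighbours of TFF2 had medians of -1.06 and -0.41. No paired analysis was possible because the recovered libraries carry no replicate number. Another count test and another normalization over all genes were not run, since reads per library were recovered for these 10 genes only. Depth limits MUC5AC and the resistant level of TFF2, which rest on 6 and 6 reads. TFF3 had 0 reads, and for it depth and poor capture by 3′-end reads cannot be told apart.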
